A study of Mus musculus with 2 samples.

Results

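The genes described here are 10 genes of the MHC class I presentation pathway, out of 55357 features listed in both count matrices: H2-K1, H2-D1, B2m, Tap1, Tap2, Tapbp, Psmb8, Psmb9, Nlrc5 and Erap1. They were chosen by name, and each was found once in both matrices. The samples were tumours of the mouse prostate cancer line RM-1, labelled wild type, grown under the skin of C57BL/6 mice. One library came from tumour tissue taken on day 10 of treatment with RP-6306, an inhibitor of the kinase PKMYT1, and the other from tumour tissue taken on day 10 of treatment with vehicle. With 1 library per treatment there was no replicate, so no difference between the treatments was tested, and "higher" or "lower" below compares these 2 libraries only. The mice's age and how many of them each library holds are not given clearly in the sources used here.

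MHC class I molecules show peptides from inside a cell to CD8+ T cells. The proteasome cuts the peptides, and in interferon-exposed or immune cells its catalytic subunits are replaced by the inducible ones, among them Psmb8 and Psmb9. Tap1 and Tap2 form the transporter that carries peptides into the endoplasmic reticulum, Erap1 trims them there, and Tapbp (tapasin) holds empty class I molecules at the transporter. H2-K1 and H2-D1 encode the heavy chains and B2m the light chain that every classical class I molecule shares. Nlrc5 is a transactivator of these genes, and tumours are known to lower the pathway to escape T cells.

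B2m lies on chromosome 2, Nlrc5 on chromosome 8, Erap1 on chromosome 13 and the other 7 genes on chromosome 17 (GENCODE M21, GRCm38, all protein-coding). H2-K1 spans chr17:33996017-34000347 on the minus strand and H2-D1 spans chr17:35262730-35267499 on the plus strand. Psmb9, Tap1, Psmb8 and Tap2 lie side by side between 34181987 and 34216321 of chromosome 17. Psmb9 and Tap1 run in opposite directions and their annotated bodies share 212 bases.

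RefSeq promoter windows on GRCm38.p6 were at hand for 8 of the 10 genes. H2-K1 had 2 entries, of which the first was used. The 250 bases before the transcription start of the heavy and light chain genes are shown here, since these 3 genes carried most of the pathway's transcripts. Capitals mark a kappa-B site, GGGATTCCC, and a class I interferon response sequence, TTTCACTTC, in H2-K1 and H2-D1, and the core of an interferon-stimulated response element, GAAANNGAA, in B2m. The first is chr17:34000348-34000597 on the minus strand, the second chr17:35262844-35263093 on the plus strand and the third chr2:122147437-122147686 on the plus strand.
H2-K1: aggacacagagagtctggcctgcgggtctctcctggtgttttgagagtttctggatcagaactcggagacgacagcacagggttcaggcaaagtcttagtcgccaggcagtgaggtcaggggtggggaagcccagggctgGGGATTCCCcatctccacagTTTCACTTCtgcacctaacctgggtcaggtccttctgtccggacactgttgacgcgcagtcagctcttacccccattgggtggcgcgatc
H2-D1: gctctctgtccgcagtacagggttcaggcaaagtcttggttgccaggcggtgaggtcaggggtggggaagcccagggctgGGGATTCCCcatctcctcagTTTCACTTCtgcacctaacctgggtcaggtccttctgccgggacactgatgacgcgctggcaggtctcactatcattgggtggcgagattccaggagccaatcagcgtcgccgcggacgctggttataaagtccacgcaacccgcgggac
B2m: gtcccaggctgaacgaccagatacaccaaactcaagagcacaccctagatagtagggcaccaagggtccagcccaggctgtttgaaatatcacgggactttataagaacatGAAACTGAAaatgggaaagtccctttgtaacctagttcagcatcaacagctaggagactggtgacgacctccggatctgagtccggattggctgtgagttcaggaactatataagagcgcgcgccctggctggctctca

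Counted from the transcription start of the entry used, the kappa-B site began at -110 of H2-K1 and -170 of H2-D1. The interferon sequence began at -90 of H2-K1 and -150 of H2-D1. These distances depend on the start chosen. The H2-D1 stretch shown, from 35262844, lies inside the GENCODE span of the gene, which begins at 35262730. A CCAAT box lay at 8 bases past the start used for H2-K1, and at -53 of H2-D1. All motifs were searched on both strands of 27025 windows of 300 bases. The kappa-B site occurred in 100 windows (0.370%). The class I interferon sequence, added to the search after the windows had been read, occurred in 141 (0.522%). Only 4 windows (0.0148%) held both, those of H2-K1, H2-D1, H2-Q6 and H2-Q7, which are all class I heavy chain genes. The H2-K1 and H2-D1 windows matched at 206 of 228 aligned positions (90.4%). Such matches describe the letters and do not show that a factor binds.

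The GAAANNGAA core began at -139 of B2m and, on the opposite strand, at -9 and -3 of Erap1, and it occurred in 8.57% of all windows. The remaining motifs were common. CCAAT was in 37.9% of all windows and in 6 of the 8 members' windows, TGACG in 21.0% and in 5, and TTCNNNGAA in 8.47% and, among members, in Psmb8 alone. The Tap1 and Psmb9 windows overlapped by 275 bases, so these 2 genes share most of 1 promoter stretch.

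The RP-6306 library held 10512 barcodes with a median of 8932 UMIs (unique molecules) per barcode, and the vehicle library held 9686 with a median of 9086.5. After a filter on genes and mitochondrial UMIs, 10308 and 9540 cells were kept. Cells were assigned by detected markers to tumour cells (8299 in the RP-6306 library and 7897 in the vehicle library), macrophages (353 and 317), dendritic cells (27 and 21), fibroblasts (51 and 45) and endothelial cells (14 and 22), while 15.2% and 13.0% of kept cells passed no gate. Tumour cells carried Krt8 and Krt18 (keratins) and no Ptprc by the gate's own rule, but also Col3a1, a fibroblast marker, at 630 CPM (a gene's UMIs with the class's total scaled to 1000000) in the RP-6306 library and 578 CPM in the vehicle library. Between the libraries, 34 cell barcodes were shared, none with identical counts. Intervals in brackets are 95% intervals that cover counting error only.

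In tumour cells the heavy and light chains dominated and were higher in the RP-6306 library, while most of the processing genes differed little. Processing genes here means the 7 members other than these chains, and so includes the scaffold Tapbp and the transactivator Nlrc5. H2-K1 was at 2705 CPM (2695 to 2716) in the RP-6306 library and 2390 CPM (2380 to 2400) in the vehicle library, a ratio of 1.13 (1.13 to 1.14). H2-D1 was at 1199 and 1069 CPM in RP-6306 and vehicle tumour cells, a ratio of 1.12 (1.11 to 1.13). B2m was at 1473 CPM in the RP-6306 library and 1227 CPM in the vehicle library, a ratio of 1.2 (1.19 to 1.21). Of the 10 genes' molecules in tumour cells, H2-K1 made up 46.9% in the RP-6306 library and 47.2% in the vehicle library, B2m 25.5% and 24.2%, and H2-D1 20.8% and 21.1%. Since the kit counts 1 end of each transcript, these levels are per molecule and are not scaled by gene length.

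A tumour cell held a mean of 30.5 H2-K1 UMIs in the RP-6306 library and 27.1 in the vehicle library, and 13.5 and 12.1 of H2-D1. Over tumour cells of at least 2000 UMIs, the 10th percentile, median and 90th percentile of H2-K1 were 983, 2587 and 4957 CPM in the RP-6306 library and 788, 2294 and 4609 CPM in the vehicle library. Each of the 3 percentiles stood above its vehicle value. With each cell thinned to 2000 UMIs, an H2-K1 molecule was seen in 96.4% (96.0 to 96.8%) of RP-6306 cells and 94.5% (94.0 to 94.99%) of vehicle cells, and without thinning in 99.7% and 99.6%. No cell class without H2-K1 was available for a background share.

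**Figure D1:**
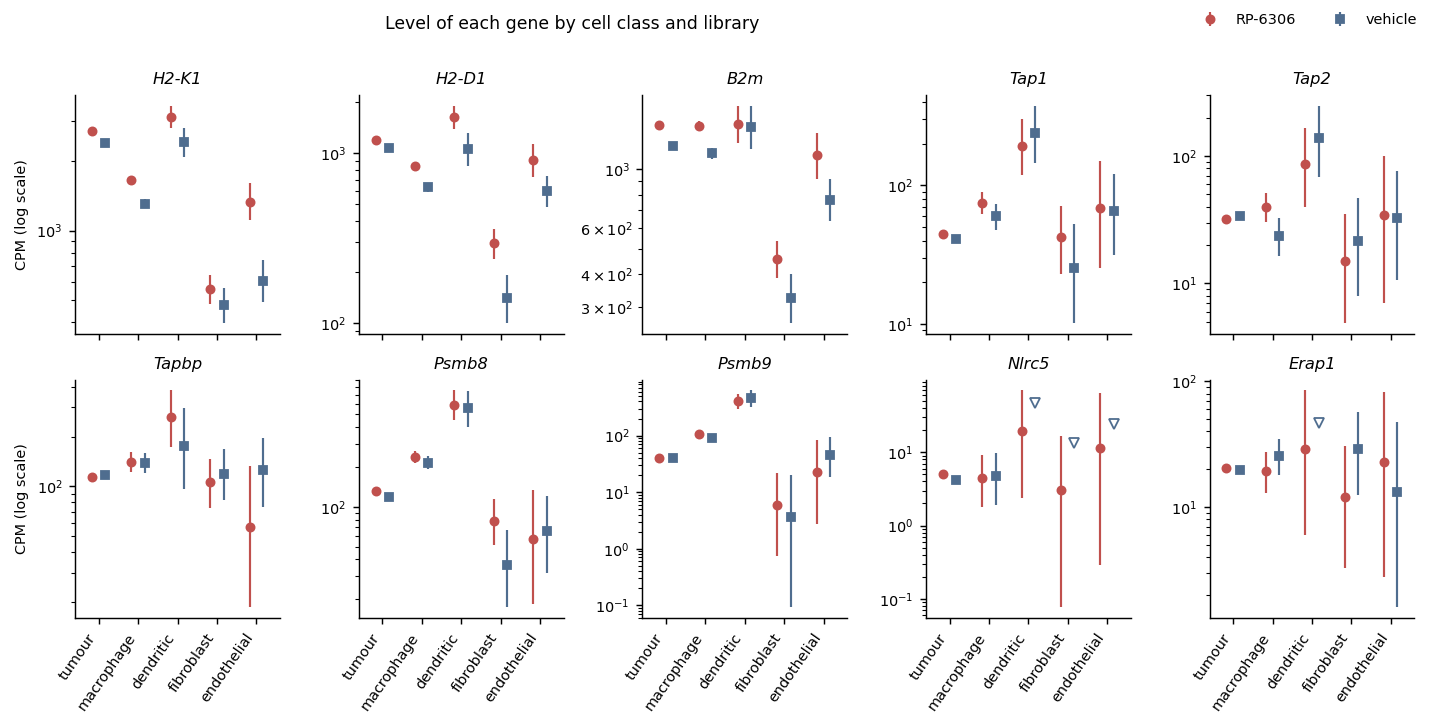
Level of each of the 10 genes, in CPM on a log scale, in 5 marker-gated cell classes of the RP-6306 library (red circles) and the vehicle library (blue squares), with exact Poisson 95% intervals. Open triangles mark the upper limit where no UMI was counted. H2-K1 in tumour cells, at 2705 and 2390 CPM, stood near its level in dendritic cells, while Psmb9 in tumour cells, at 40.5 and 40.6 CPM, stood far below it.

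Of the transporter subunits in tumour cells, Tap1 was at 44.3 CPM in the RP-6306 library and 40.9 CPM in the vehicle library, a ratio of 1.08 (1.03 to 1.13). Tap2 was at 32.1 and 33.6 CPM in RP-6306 and vehicle cells, and its ratio of 0.955 had an interval of 0.908 to 1.01. Tapbp, the loading scaffold, was at 114 CPM in the RP-6306 library and 117 CPM in the vehicle library, a ratio of 0.975 (0.949 to 1.002). Tap1 was thus slightly higher in the RP-6306 library, while the intervals of Tap2 and Tapbp reached past 1.

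Psmb8, the inducible chymotrypsin-like subunit, was at 132 CPM in the RP-6306 library and 119 CPM in the vehicle library, a ratio of 1.11 (1.08 to 1.14). Psmb9, encoded next to Tap1, was at 40.5 and 40.6 CPM in RP-6306 and vehicle cells, a ratio of 0.998 (0.953 to 1.04), and its sign turned to 0.02 (log2) with trimmed-mean scaling. Erap1, the trimming peptidase, was at 20.4 CPM in RP-6306 cells and 19.7 CPM in vehicle cells (ratio 1.04, 0.973 to 1.11). Nlrc5 was the rarest member, at 4.99 CPM in the RP-6306 library and 4.19 CPM in the vehicle library, from 468 and 375 UMIs, a ratio of 1.19 (1.04 to 1.37).

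Summed over the 10 genes, tumour cells held 5766 CPM in the RP-6306 library and 5061 CPM in the vehicle library, a ratio of 1.14 (1.13 to 1.14). The 7 genes other than H2-K1, H2-D1 and B2m summed to 388 CPM in RP-6306 cells and 375 CPM in vehicle cells, a ratio of 1.04 (1.02 to 1.05). At least 100 UMIs over both libraries were held by all 10 members, of which 7 were higher and 3 lower in the RP-6306 library, with a median log2 ratio of 0.13. Of 13913 genes with as many UMIs, 43.3% were higher and 56.7% lower, and their median was -0.03. B2m was the sole member higher by at least 1.2-fold, and of all genes 7.99% were. No member was higher by at least 1.5-fold, as 1.51% of all genes were. B2m lay at the limit itself: Nlrc5 joined it with other scalings and with cells free of leukocyte markers, Nlrc5 alone passed (0.27 on the log2 scale, and B2m 0.25) with the mean of per-cell CPM, and neither passed when the 5% deepest cells were left out.

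The tumour-cell difference depended on the gate in 1 respect. Among the 147 RP-6306 and 128 vehicle tumour cells without a UMI of any other class's markers, the summed log2 ratio was -0.036, with H2-K1 at -0.13, H2-D1 at -0.22 and Psmb8 at -0.20, while B2m stayed at 0.32. These were 1.77% and 1.62% of gated tumour cells, with median depths of 4446 and 4377.5 UMIs against 9982 and 9952 in all, since most tumour cells carried some collagen or endothelial-list transcripts. Among the 4571 RP-6306 and 4404 vehicle tumour cells with no leukocyte marker, a gate added after the data were seen, the summed log2 ratio was 0.19, as in all gated tumour cells.

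**Figure D2:**
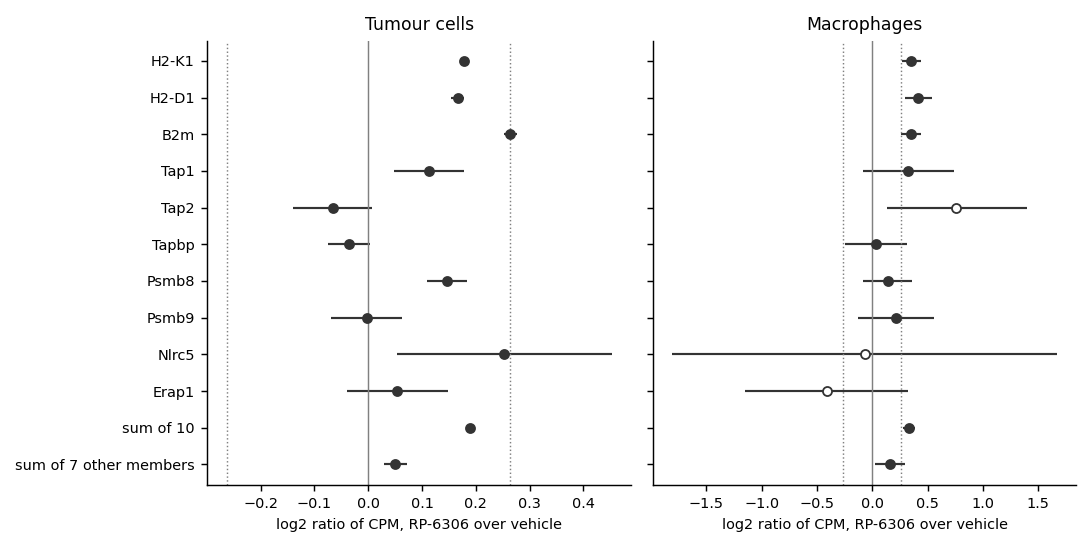
Log2 ratio of CPM, RP-6306 over vehicle, for each gene and 2 sums in tumour cells (left) and macrophages (right), with exact conditional 95% intervals. The solid line marks no difference, dotted lines mark 1.2-fold, and open circles mark genes with under 100 UMIs over both libraries. In tumour cells B2m lies on the dotted line, and in macrophages H2-K1, H2-D1, B2m and Tap1 lie beyond it, as do the open circles of Tap2 (0.76, higher) and Erap1 (-0.41, lower).

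In macrophages, which engulf material and present it, heavy and light chains were also higher under RP-6306, and their ratios exceeded those of tumour cells. H2-K1 was at 1665 CPM (1602 to 1730) in the RP-6306 library and 1305 CPM (1248 to 1365) in the vehicle library, a ratio of 1.28 (1.2 to 1.35). H2-D1 was at 838 CPM in RP-6306 macrophages and 629 CPM in vehicle macrophages, a ratio of 1.33 (1.22 to 1.45), and B2m was at 1459 CPM in RP-6306 macrophages and 1149 CPM in vehicle macrophages, a ratio of 1.27 (1.19 to 1.35). The UMIs per macrophage were higher as well, at 7.37 in the RP-6306 library and 6.13 in the vehicle library for H2-K1, although the RP-6306 macrophages were shallower (median 3875 UMIs, and 4317 in the vehicle library). The intervals of the tumour and macrophage ratios did not overlap for H2-K1 and H2-D1 and did for B2m, but whether the treatments act differently in the 2 classes cannot be tested with 1 library each.

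The processing genes of macrophages rested on few molecules. Tap1 was at 74.9 CPM in the RP-6306 library and 59.8 CPM in the vehicle library, a ratio of 1.25 (0.943 to 1.67). Psmb8 was at 238 and 216 CPM in RP-6306 and vehicle macrophages (1.1, 0.946 to 1.28), and Psmb9 at 104 and 90.1 CPM (1.16, 0.917 to 1.47). Tapbp was at 141 CPM in the RP-6306 library and 138 CPM in the vehicle library. Tap2 had 62 UMIs in RP-6306 macrophages and 35 in vehicle macrophages, a ratio of 1.69 (1.1 to 2.63), and its log2 ratio was -0.0027 in macrophages without another class's markers. Erap1 had 30 and 38 UMIs, and Nlrc5 had 7 in each library.

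Over the 10 genes macrophages held 4584 CPM in the RP-6306 library and 3640 CPM in the vehicle library, a ratio of 1.26 (1.22 to 1.30). Of the 7 members with at least 100 UMIs, 7 were higher in the RP-6306 library, where 48.7% of all genes tested were, and 4 of them (H2-K1, H2-D1, B2m and Tap1) by at least 1.2-fold, against 13.2% of 4239 genes. None was higher by at least 1.5-fold, as 1.96% of all genes were. Tap2, Nlrc5 and Erap1 had fewer UMIs and are outside these counts. The 7 members' median log2 ratio was 0.33, and that of all genes -0.01. The macrophage markers summed to 18669 CPM in the RP-6306 library and 18920 CPM in the vehicle library. Krt8, a tumour keratin that can mark free tumour RNA, was at 57.6 CPM in RP-6306 macrophages and 65.2 CPM in vehicle macrophages, and at 761 and 1004 CPM in the tumour cells of those libraries. The gate itself holds tumour markers low in macrophages, and the part of free RNA in these levels was not tested.

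The 3 small classes pointed the same way for the summed level, on 14 to 51 cells per library. Dendritic cells held 7820 CPM of the 10 genes in the RP-6306 library and 6483 CPM in the vehicle library, a ratio of 1.21 (1.08 to 1.35). Fibroblasts held 1571 CPM in the RP-6306 library and 1176 CPM in the vehicle library, a ratio of 1.34 (1.16 to 1.54), and endothelial cells 3657 and 2318 CPM, a ratio of 1.58 (1.35 to 1.84). Single genes stood out within them: H2-D1 in fibroblasts was at 295 CPM in the RP-6306 library and 141 CPM in the vehicle library (2.09-fold). H2-K1 in endothelial cells was at 1337 CPM in the RP-6306 library and 604 CPM in the vehicle library (2.21-fold), from 117 UMIs in 14 cells and 92 UMIs in 22 cells. The 7 genes other than the chains had summed ratios of 1.02 (0.799 to 1.29) in dendritic cells and 1.12 (0.799 to 1.56) in fibroblasts. In endothelial cells that ratio was 0.788 (0.465 to 1.3). The members past 1.2-fold, all higher in the RP-6306 library, were 2 of 4 tested in dendritic cells, 2 of 3 in fibroblasts and 3 of 3 in endothelial cells, where 15%, 24.1% and 20.8% of all genes tested were. Cells of 1 library share its preparation, so these 5 classes are not 5 independent samples.

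The classes kept 1 order in both libraries for the sum: dendritic cells first, then tumour cells, macrophages, endothelial cells and fibroblasts, and no neighbours' intervals overlapped. H2-D1 was ordered otherwise, with endothelial cells above macrophages in the RP-6306 library and tumour cells above dendritic cells in the vehicle library, both with overlapping intervals. For H2-K1, dendritic cells stood at 1.15 times (1.03 to 1.29) the tumour level in the RP-6306 library and 1.01 times (0.873 to 1.16) in the vehicle library, and macrophages at 0.615 and 0.546 times. For B2m, dendritic cells (1479 CPM), tumour cells (1473 CPM) and macrophages (1459 CPM) had overlapping intervals in the RP-6306 library, as did dendritic and tumour cells in the vehicle library (1448 and 1227 CPM). Fibroblasts were lowest, with H2-K1 at 0.205 and 0.198 times the tumour level in the RP-6306 and vehicle libraries.

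The processing genes, summed, followed another order, with tumour cells below dendritic cells and macrophages. The 7 genes other than the chains summed to 1585 CPM in dendritic cells, 621 CPM in macrophages and 388 CPM in tumour cells of the RP-6306 library, and to 1561, 557 and 375 CPM in the vehicle library. Dendritic cells thus held 4.08 times (3.48 to 4.76) the tumour level in the RP-6306 library and 4.16 times (3.46 to 4.96) in the vehicle library. The gap was widest for Psmb9, at 10.0 times (7.21 to 13.6) the tumour level in RP-6306 dendritic cells and 11.2 times (7.81 to 15.5) in vehicle dendritic cells. Psmb8 stood at 4.46 and 4.64 times and Tap1 at 4.37 and 5.85 times in dendritic over tumour cells of the RP-6306 and vehicle libraries. Macrophages stood at 2.58 and 2.22 times the tumour level for Psmb9 and at 1.80 and 1.81 times for Psmb8. For Nlrc5 and Erap1 all neighbouring classes overlapped, and dendritic cells of the vehicle library held 0 UMIs of either gene.

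The inducible proteasome subunits were then set against the constitutive subunits they replace, as the inducible share of each pair's UMIs. In tumour cells Psmb8 made up 51.8% (51.1 to 52.4%) of the Psmb8 and Psmb5 pair in the RP-6306 library and 47.9% (47.3 to 48.6%) in the vehicle library. Psmb9 made up 13.0% (12.6 to 13.4%) of the Psmb9 and Psmb6 pair in RP-6306 tumour cells and 12.7% (12.4 to 13.1%) in vehicle tumour cells. Psmb10, the third inducible subunit, made up 33.8% and 31.7% of its pair with Psmb7. Of the 3 inducible subunits in tumour cells, Psmb9 had the lowest share of its pair in both libraries.

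In macrophages the Psmb8 share was 70% (65.9 to 73.9%) in the RP-6306 library and 64.8% (60.5 to 69.1%) in the vehicle library, and the Psmb9 share was 35.5% and 30.0%. In dendritic cells the Psmb8 share was 89.7% and 91.7%, and the Psmb9 share was 89.4% (76.9 to 96.5%) in the RP-6306 library and 76.6% (62.0 to 87.7%) in the vehicle library. Fibroblasts held 2 Psmb9 UMIs beside 42 of Psmb6 in the RP-6306 library, and 1 beside 44 in the vehicle library.

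**Figure D3:**
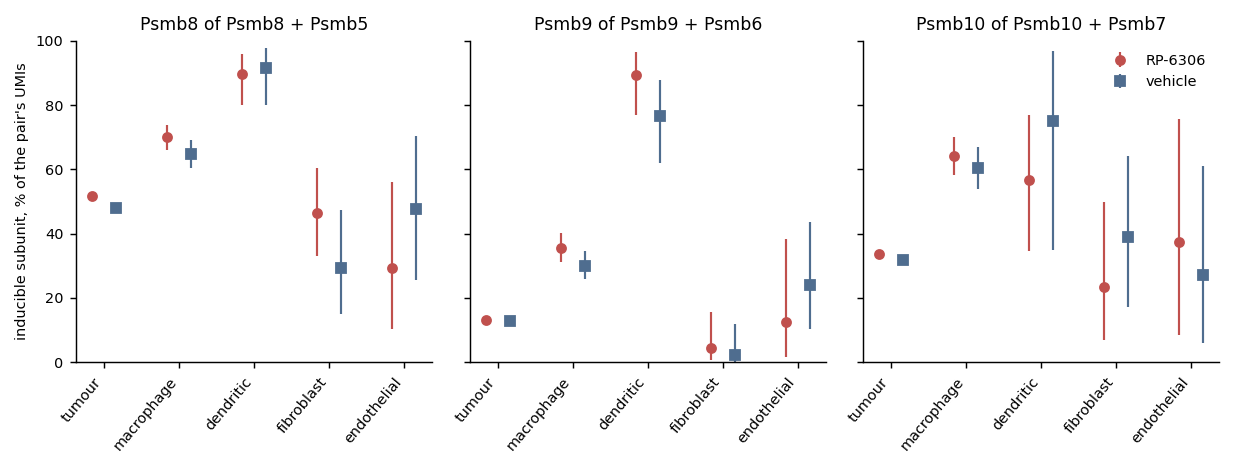
Inducible subunit as a percentage of the UMIs of its pair in 5 cell classes, for the RP-6306 library (red circles) and the vehicle library (blue squares), with exact binomial 95% intervals. The Psmb9 share is 4.55% and 2.22% in fibroblasts, 13.0% and 12.7% in tumour cells and 89.4% and 76.6% in dendritic cells of the RP-6306 and vehicle libraries.

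Tumour cells were next split by cell cycle stage, since PKMYT1 acts on the kinase that starts mitosis. A cell counted as S or G2/M where over 3 of its 2000 thinned UMIs fell in a list of 24 S or 23 G2/M genes, a limit set at the 75th percentile over both libraries, and as low in both otherwise. There were 1566 S, 1141 G2/M and 5490 low cells in the RP-6306 library, and 1266, 1331 and 5228 in the vehicle library. Many cells lay within 1 UMI of the limit, 2980 and 2791 for the S list and 844 and 835 for the G2/M list, so the stages are ranges rather than kinds of cell.

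Cycling cells carried a lower level of the pathway, in CPM, than cells low in both lists. Over the 10 genes, S cells stood at 0.785 times (0.780 to 0.791) the low cells' level in the RP-6306 library and 0.776 times (0.770 to 0.782) in the vehicle library. G2/M cells stood at 0.803 and 0.832 times in those libraries. H2-K1 was at 2299 CPM in S, 2469 CPM in G2/M and 2949 CPM in low cells of the RP-6306 library, and at 2006, 2235 and 2584 CPM in the vehicle library. The deepest gaps in G2/M were those of Tapbp, at 0.644 and 0.704 times the low cells' level, and of B2m, at 0.711 and 0.740 times. S and G2/M cells were deeper, with median UMIs of 12454.5 and 14376 against 8765 in low cells of the RP-6306 library, and the part of depth in these ratios was not tested. Counted per cell, both cycling stages held more UMIs of the 10 genes than low cells, in both libraries. The RP-6306 library had 107212 in 1566 S cells, 92878 in 1141 G2/M cells and 339250 in 5490 low cells. The vehicle library had 74618 in 1266, 95394 in 1331 and 282165 in 5228.

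Tap1 ran the other way. It was at 47.2 CPM in S, 47.1 CPM in G2/M and 42.0 CPM in low cells of the RP-6306 library, and at 42.9, 46.3 and 38.0 CPM in the vehicle library. Its ratio of S over low cells was 1.12 (1.04 to 1.21) in RP-6306 cells and 1.13 (1.04 to 1.23) in vehicle cells, and of G2/M over low cells 1.12 (1.04 to 1.21) and 1.22 (1.13 to 1.32). Tap2, its partner, stood below 1 in each of these 4 ratios, between 0.797 and 0.883. Psmb9, which shares the promoter stretch with Tap1, had ratios of 1.07 (0.991 to 1.16) in S and 1.02 (0.941 to 1.11) in G2/M of the RP-6306 library, and of 0.940 (0.859 to 1.03) in S and 1.12 (1.03 to 1.21) in G2/M of the vehicle library. Of these 4 intervals, 3 spanned 1.

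**Figure D4:**
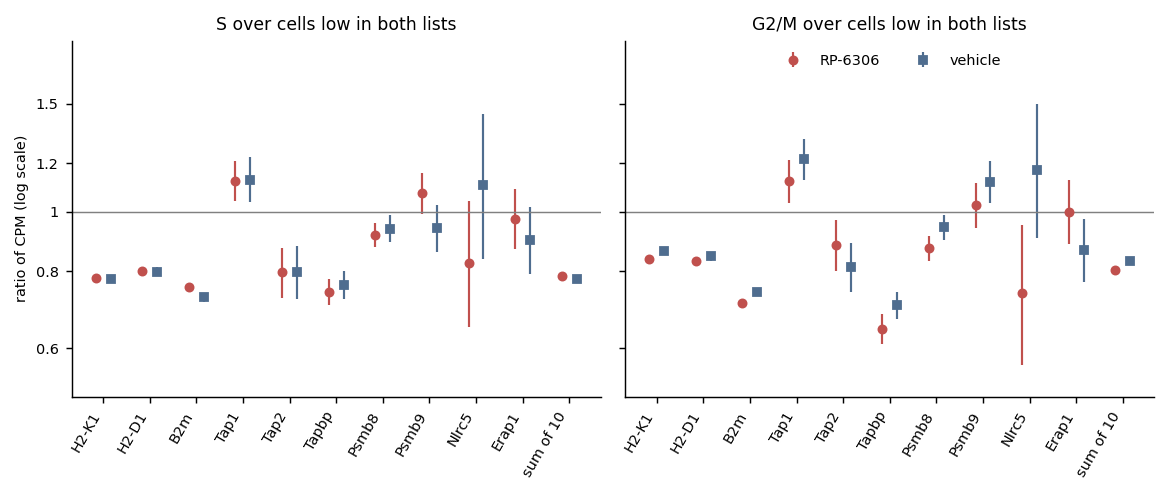
Ratio of CPM in S cells (left) and G2/M cells (right) over tumour cells low in both cycle lists, on a log scale, for the RP-6306 library (red circles) and the vehicle library (blue squares), with exact conditional 95% intervals. The line marks a ratio of 1. Tap1 lies above 1 in both panels and both libraries, and the sum of 10 lies between 0.776 and 0.832.

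The difference between the libraries was present at each stage. The sum of 10 genes had a ratio of RP-6306 over vehicle of 1.16 (1.15 to 1.17) in S, 1.11 (1.1 to 1.12) in G2/M and 1.15 (1.14 to 1.15) in low cells. B2m had the highest ratio of the 3 chain genes at each stage, 1.25 in S, 1.15 in G2/M and 1.2 in low cells. In G2/M the 7 processing genes did not follow, at 348 CPM in the RP-6306 library and 352 CPM in the vehicle library (0.988, 0.955 to 1.02), and Tapbp was lower there at 84.3 and 93.0 CPM (0.906, 0.847 to 0.969). Nlrc5 was at 5.50 CPM in RP-6306 low cells and 3.95 CPM in vehicle low cells (1.39, 1.16 to 1.67), while its ratio in G2/M was 0.876 (0.638 to 1.2).

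The pathway is induced by interferons, so tumour cells were also split by UMIs of 15 interferon-stimulated genes, such as Isg15, Rsad2 and Irf7, a list without any of the 10 members. Each of the 15 was higher by at least 1.2-fold in RP-6306 tumour cells, where 7.99% of all genes tested were. Their median log2 ratio was 1.02, and that of all genes -0.03. The list was chosen with earlier results of these data known, so this count describes the list and is not a finding. With cells thinned to 2000 UMIs, 38.8% (37.8 to 39.9%) of RP-6306 tumour cells and 26.1% (25.2 to 27.1%) of vehicle tumour cells held at least 1 such UMI. At least 2 were held by 16.6% (15.8 to 17.4%) and 7.39% (6.82 to 7.99%) of cells in those libraries. The split is a description of cells within each library.

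The members' level went up with the number of interferon-list UMIs in both libraries. Over the 10 genes it was 5585 CPM in cells with 0, 6438 CPM with 1 and 7638 CPM with 2 or more in the RP-6306 library, and 5188, 6075 and 7105 CPM in the vehicle library. Cells with at least 1 UMI stood at 1.24 times (1.23 to 1.26) the level of cells with 0 in the RP-6306 library and 1.23 times (1.21 to 1.25) in the vehicle library. Summed, the 7 processing genes stood at 1.46 times (1.39 to 1.53) in the RP-6306 library and 1.32 times (1.25 to 1.39) in the vehicle library. Tap1 stood at 57.2 CPM with and 35.5 CPM without such UMIs in the RP-6306 library (1.61, 1.39 to 1.87), and at 57.2 and 36.4 CPM in the vehicle library (1.57, 1.33 to 1.85). Psmb9 stood at 1.69 times (1.45 to 1.98) in the RP-6306 library and 1.23 times (1.04 to 1.46) in the vehicle library, Tapbp at 1.47 and 1.25 times, and Tap2 at 1.43 and 1.24 times. H2-K1 stood at 1.26 and 1.24 times, H2-D1 at 1.21 and 1.24 times and B2m at 1.19 and 1.17 times in the RP-6306 and vehicle libraries. In the vehicle library the steps of Psmb9, Tapbp and Tap2 at this thinning were thus near those of the heavy chains, but that of Psmb9 depended on the thinning. Erap1 showed no step, at 0.966 (0.771 to 1.21) and 1.1 (0.855 to 1.39) in the RP-6306 and vehicle libraries. Cells with such UMIs had a median depth of 9972.5 UMIs, and cells without 10141, in the RP-6306 library. In the vehicle library these medians were 9448.5 and 10204, and 8709 in cells with 2 or more. The part of depth in these steps was not tested.

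**Figure D5:**
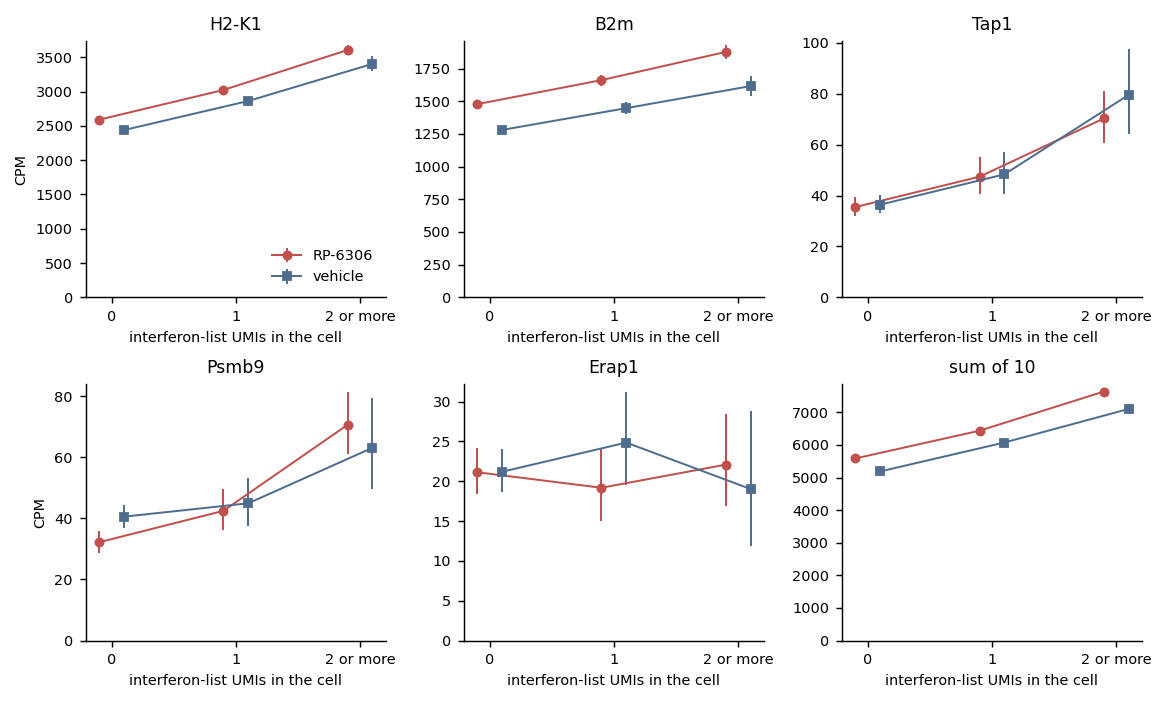
Level of 5 genes and of the sum of 10, in CPM, in tumour cells thinned to 2000 UMIs with 0, 1 and 2 or more UMIs of the interferon-stimulated list, for the RP-6306 library (red circles) and the vehicle library (blue squares), with exact Poisson 95% intervals. The sum steps up from 5585 to 7638 CPM in the RP-6306 library and from 5188 to 7105 CPM in the vehicle library, and Erap1 stays near 20 CPM.

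The libraries were also compared among cells with and among cells without interferon-list UMIs. Over all thinned tumour cells the sum of 10 had a ratio of RP-6306 over vehicle of 1.11 (1.1 to 1.12). Among cells with at least 1 interferon-list UMI it was 1.09 (1.08 to 1.11), and among cells with 0 it was 1.08 (1.06 to 1.09). Without thinning these ratios were 1.14 over all, 1.12 with such UMIs and 1.13 with 0. In thinned cells B2m had a ratio of 1.17 (1.14 to 1.21) with such UMIs and 1.15 (1.13 to 1.18) without, and H2-K1 one of 1.09 and 1.06. The 7 processing genes had a ratio of 1.02 (0.982 to 1.05) over all thinned cells, and Psmb9 one of 0.949 (0.851 to 1.06). In cells with 0 such UMIs the 7 genes summed to 350 CPM in the RP-6306 library and 375 CPM in the vehicle library, a ratio of 0.934 (0.893 to 0.977), and Psmb9 was at 32.2 and 40.6 CPM (0.794, 0.687 to 0.916). A cell with 0 of 2000 UMIs in the list can still carry such transcripts below this depth. Cells with at least 1 such UMI are not at a single level either. Of them, 1358 of 3182 in the RP-6306 library and 578 of 2046 in the vehicle library held 2 or more. With exactly 1 such UMI the sum of 10 was 6438 CPM in RP-6306 and 6075 CPM in vehicle cells. With 2 or more it was 7638 and 7105 CPM. The part of this unequal mix in the ratios was not tested.

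Other genes of the pathway were counted by fixed groups. Of the loading chaperones, 4 of 4 were higher in RP-6306 tumour cells, where 43.3% of all genes were, and none of them by 1.2-fold. Tapbpl, named after its value was seen, hardly differed, at 6.40 CPM in the RP-6306 library and 6.38 CPM in the vehicle library (1.003, 0.893 to 1.13). Pdia3, a thiol oxidoreductase of the loading complex, was at 898 CPM in the RP-6306 library and 778 CPM in the vehicle library (1.15, 1.14 to 1.17). Calr, a lectin chaperone, was at 630 CPM in RP-6306 tumour cells and 538 CPM in vehicle tumour cells (1.17, 1.16 to 1.19), and at 833 and 619 CPM in macrophages (1.35, 1.24 to 1.47). Of the constitutive subunits, 3 of 3 were lower, as were 56.7% of all genes, and none by 1.2-fold, with Psmb6 at 270 CPM in RP-6306 and 278 CPM in vehicle tumour cells and Psmb5 at 123 and 130 CPM. Psme1 and Psme2, the proteasome activator subunits, were at 158 and 110 CPM in RP-6306 tumour cells and 163 and 111 CPM in vehicle tumour cells. Of the cytosolic trimming enzymes 1 of 3 was higher, with Npepps at 81.0 and 86.8 CPM and Lnpep at 69.2 and 72.5 CPM in RP-6306 and vehicle tumour cells.

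Other class I heavy chains were mixed in tumour cells, where 3 of 8 with at least 100 UMIs were higher and 5 lower, with a median log2 ratio of -0.03. H2-M3 was at 55 CPM in RP-6306 tumour cells and 53.3 CPM in vehicle tumour cells, and H2-T22 at 50.3 and 51.9 CPM. Past 1.2-fold were H2-T10 (higher, 1.36), Mr1 (0.725) and Cd1d1 (0.804), named after their values were seen, where 7.99% of all genes were higher and 9.6% lower by as much. H2-Q6 had 46 UMIs in the RP-6306 library and 12 in the vehicle library (3.66, 1.91 to 7.59). In macrophages 3 of 3 tested were higher by at least 1.2-fold, as were 13.2% of all genes: H2-Q7 at 63.4 CPM in the RP-6306 library and 34.9 CPM in the vehicle library (1.81, 1.28 to 2.59), H2-T22 at 40.3 and 24.9 CPM (1.62, 1.06 to 2.51) and H2-M3 at 62.1 and 42.3 CPM (1.47, 1.06 to 2.05). On fewer UMIs in macrophages, H2-T23 had 55 in the RP-6306 library and 34 in the vehicle library (1.54, 0.987 to 2.44), H2-Q6 had 12 and 5, and Mr1 had 5 and 3. Heavy chain genes are near-identical in stretches, and reads that fit several genes are not counted, so these levels and those of H2-K1 and H2-D1 are uncertain.

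Among regulators, Irf1, an interferon-induced activator of Tap1 and Psmb9, was at 128 CPM in RP-6306 tumour cells and 130 CPM in vehicle tumour cells, and Nfkb1, a subunit of the factor NF-kappa-B, was at 75.4 and 72.1 CPM. Of the 11 regulators 5 were higher and 6 lower in tumour cells, near the 43.3% and 56.7% of all genes.

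The chain genes also went together from cell to cell. In tumour cells thinned to 4000 UMIs (7897 in the RP-6306 library and 7565 in the vehicle library), the Pearson r of H2-K1 with H2-D1 was 0.583 and 0.603, and with B2m 0.438 and 0.462. These values are descriptions, since such cells share a library and sampling lowers r for the rarer genes. Across the 10 class and library levels, the members most like H2-K1 were B2m (r = 0.910) and H2-D1 (0.906), and the member most like Psmb8 was Psmb9 (0.927). Outside the lists, the 3 genes most like H2-K1 were Plscr1 (0.949), Mrpl32 (0.947) and Zfp706 (0.944), and those most like Psmb8 were Brip1os (0.976), Mir142hg (0.974) and Ubash3b (0.971). The 10 points are 5 classes in each of 2 libraries, and the dendritic and endothelial points rest on few cells.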

How the data were processed

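Single-cell transcriptomes were measured in 1 RP-6306 and 1 vehicle library. The deposited values are raw whole-number counts of UMIs for each gene in each barcode. The chemistry was 10x Genomics 3' capture, per the labels. Per the file headers, the matrices come from Cell Ranger 7.1.0. Version 2.1.1 and the mouse build mm10 stand in the submitters' processing notes, and which holds is not known. Cells with at least 500 genes and at most 15% mitochondrial UMIs were kept. They were gated by detected markers: at least 2 of 5 for tumour, 5 of 12 for macrophages, 2 of 10 for dendritic cells, 7 of 10 for fibroblasts and 7 of 12 for endothelial cells. Cells with markers of another class past a limit were refused, which served against doublets, and no caller was run. These limits were set after marker counts per cell were seen. The gates define the classes, so the markers are not findings. UMIs were added up over each class of a library and given as CPM, with exact Poisson intervals for levels, exact conditional intervals for ratios and Clopper-Pearson intervals for shares (scipy 1.17.1). Molecular counting error is the only error covered. Genes with at least 100 UMIs over both libraries were counted past 1.2-fold. The fold counting was also run on simulated counts with Poisson error only. That run holds no variation between libraries, and no outcome of it is given here. Scaling factors came from edgeR 4.0.16 and DESeq2 1.42.0 and were used for alternatives only. Pathway genes named are the 2 with most tumour UMIs in each group and those past 1.5-fold, except an item that is not reported here. The 3 genes most alike were ranked by Pearson r of log2(CPM + 1). The members and lists were chosen with earlier results of these data known.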

Additional observations from a re-analysis of the deposited data

How the results depend on the processing

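With 1 library per treatment, nothing here separates treatment from mouse or library. No paired analysis was possible because each treatment has 1 library and no test was made. Values are log2 ratios of RP-6306 over vehicle. The summed tumour level was 0.19, 0.21 with trimmed-mean and with median-of-ratios scaling, 0.16 as a mean over cells and 0.18 without the 5% deepest cells. It fell to -0.036, near no difference, in the stricter gate, where H2-K1 (-0.13), H2-D1 (-0.22) and Psmb8 (-0.20) also turned negative. That gate kept few, shallow cells. The macrophage sum was 0.33, 0.40 as a mean over cells, 0.38 in the stricter gate and 0.43 without the 5% deepest cells. Tap2 in macrophages fell to -0.0027, near no difference, in the stricter gate. The fibroblast sum was 0.42 and 0.21 as a mean over cells, and the endothelial sum was 0.66 and 0.95 in the stricter gate. The cause of these shifts was not tested. Members past 1.2-fold in tumour cells were 1 of 10, but 2 with either scaling and with no leukocyte marker (added after the data were seen), all higher. They were 2 of 5 in the stricter gate, B2m higher and Tapbp lower (-0.96), 1 as a mean over cells (Nlrc5 in place of B2m), and 0 without the 5% deepest cells and at 1.5-fold. In macrophages they were 4, and 0 at 1.5-fold. By stage, the G2/M ratio was 0.15 and became 0.17 with stages from all UMIs, and the S ratio was 0.21 and became 0.14 with a stricter limit on the list share. Cells with over cells without interferon-list UMIs differed by 0.32 in the RP-6306 library, by 0.27 at 4000 UMIs and by 0.19 without thinning, and by 0.30 in the vehicle library, 0.20 without thinning. Of 149 alternative values of single genes, 141 kept their sign. Of the other values, 43 stayed within the counting spread or within 1.5 times the count, 21 moved further and 1 changed sign.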
